A study of Mus musculus with 18 samples.

Results

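GABA-A receptor subunit genes were followed in mouse hippocampus after rotation that disturbs the sense of orientation. The 7 genes described here, Gabra2, Gabra3, Gabra4, Gabra5, Gabrb1, Gabrb2 and Gabrd, were taken by symbol from a table of 22063 genes, and 7 of 7 passed the filter on low counts that left 14763 genes for testing. The data are polyadenylated RNA from 18 hippocampus libraries, with tissue taken straight after the rotation. Mice of the S-V group (n = 5) were turned in a single direction with their eyes covered. Those of the D+V group (n = 5) were turned in both directions and could see, and those of the D-V group (n = 5) were turned in both directions with eyes covered, which the labels call the Coriolis illusion. The Control group (n = 3) is described only as blank, so whether these mice were placed in the apparatus or had their eyes covered is not known. The labels give no strain, age or sex. They also do not tie each library to its own animal, and the p-values below therefore cover only differences among libraries, part of which may be technical.

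GABA-A receptors are chloride channels built of several subunits, and they carry most fast inhibition in the brain. A typical receptor joins alpha and beta subunits, whose interface binds GABA, with a gamma subunit at synapses or a delta subunit outside them. In the hippocampus, receptors with the alpha5 subunit lie largely outside synapses of pyramidal cells, and those with alpha4 and delta give dentate granule cells a steady inhibitory current.

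Start sites are shown for the genes on which the later results turn, because Gabra4 and Gabrb1 face each other at nearly the same place while Gabrb1 and Gabrb2, on different chromosomes, varied together across libraries. Each window holds the 250 bases before a start annotated by RefSeq on GRCm38.p6, read 5′ to 3′ on the strand of the gene. Capitals mark matches, on either strand, to the GC box GGGCGG, the CCAAT box CCAAT or the TATA box TATAAA. The Gabra4 window is chr5:71658309-71658558 on the minus strand, the Gabrb1 windows are chr5:71657671-71657920 and chr5:71699682-71699931 on the plus strand, and the Gabrb2 window, the first of its 3, is chr11:42420190-42420439 on the plus strand.
Gabra4: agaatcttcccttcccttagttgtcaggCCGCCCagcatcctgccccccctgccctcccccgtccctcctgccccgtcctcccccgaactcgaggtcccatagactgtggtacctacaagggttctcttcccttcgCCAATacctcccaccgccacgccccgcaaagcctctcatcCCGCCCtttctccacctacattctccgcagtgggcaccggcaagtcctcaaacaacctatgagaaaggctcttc
Gabrb1 first start: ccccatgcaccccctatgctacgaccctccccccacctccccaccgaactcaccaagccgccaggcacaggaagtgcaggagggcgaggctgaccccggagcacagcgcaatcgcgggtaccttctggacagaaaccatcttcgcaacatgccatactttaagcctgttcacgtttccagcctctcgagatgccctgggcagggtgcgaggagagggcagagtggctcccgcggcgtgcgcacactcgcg
Gabrb1 second start: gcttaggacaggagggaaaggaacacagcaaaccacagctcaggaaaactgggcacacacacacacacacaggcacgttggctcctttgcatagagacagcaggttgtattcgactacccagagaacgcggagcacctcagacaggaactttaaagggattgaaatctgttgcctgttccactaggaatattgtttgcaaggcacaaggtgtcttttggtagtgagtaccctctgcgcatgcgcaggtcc
Gabrb2 first start: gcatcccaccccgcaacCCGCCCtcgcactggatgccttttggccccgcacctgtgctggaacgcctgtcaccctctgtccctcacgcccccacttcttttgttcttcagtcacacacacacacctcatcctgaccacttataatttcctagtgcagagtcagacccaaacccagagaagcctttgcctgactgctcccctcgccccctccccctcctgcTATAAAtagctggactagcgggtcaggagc

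The Gabra4 window held 2 GC boxes and 1 CCAAT box, the Gabrb2 window held 1 GC box and 1 TATA box, and the Gabrb1 windows held 0 matches to any of these motifs. No matches to different motifs overlapped. Among 32851 windows of this length, 32.7% held the GC box, 33.8% the CCAAT box and 12.4% the TATA box, so these matches are common. The cyclic AMP response element TGACGTCA, the Egr site GCGTGGGCG and the E box CACGTG were also searched, and the 10 windows of the 6 members with an entry held 0 of each. A match is a run of letters and not a measured binding site. The first Gabrb1 start lies inside Gabra4, so that the genes share 388 bases on opposite strands, and the second Gabrb1 start lies 42 kb further on. Strand use in the counting was not stated, so reads from the shared bases cannot be assigned to Gabra4 or Gabrb1 with certainty.

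Gabra5 was the most abundant member per length of transcript. Levels between genes are given as counts scaled to library size (CPM) and divided by annotated transcript length (CPM per kb). Over the 18 libraries Gabra5 averaged 88.4 ± 9.13 CPM per kb (SD, n = 18), and its lowest library, at 66.2, lay above the highest Gabra4 library, at 28.2. Gabra4 followed with 23.9 ± 2.5 CPM per kb. Gabra3, at 16.7 ± 2.97, and Gabrd, at 14.7 ± 2.45 CPM per kb, did not differ beyond their spread. The same holds for Gabrb2 at 10.6 ± 4.72, Gabrb1 at 10.2 ± 2.79 and Gabra2 at 8.22 ± 1.17 CPM per kb, whose ranges overlapped. This order rests on 1 annotated transcript per gene, from 1921 bases for Gabrd to 13737 for Gabrb1, and the transcripts in use were not measured.

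**Figure D1:**
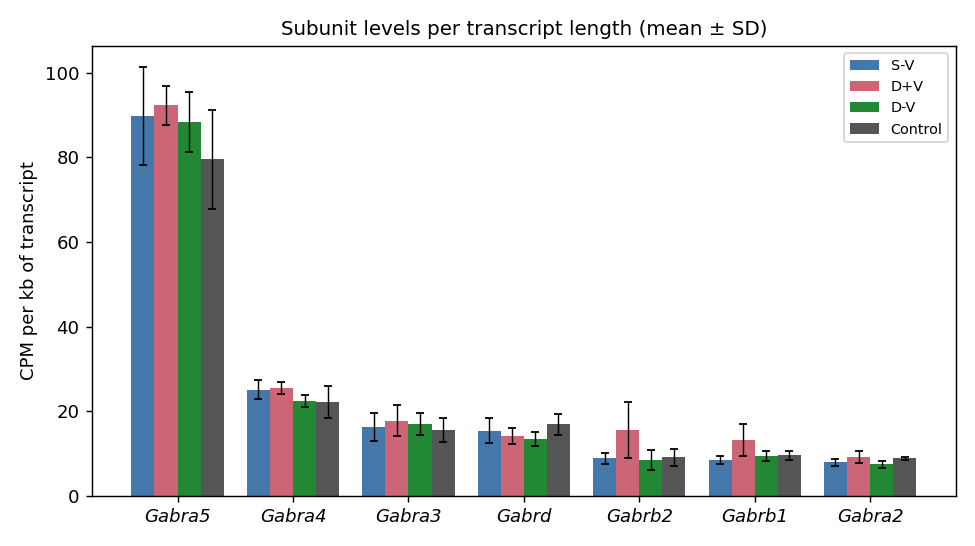
Mean level of each subunit in CPM per kb of annotated transcript, by group, with SD (S-V, D+V and D-V n = 5 each, Control n = 3). Gabra5 stands above the other members in every group, with 89.7 for S-V, 92.3 for D+V, 88.3 for D-V and 79.6 for Control.

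The libraries held between 15.03 and 25.31 M estimated counts. All 7 markers of hippocampal excitatory neurons and all 12 of GABAergic interneurons passed the filter, as did 10 of 10 dentate granule cell markers. Tissue next to the hippocampus was present in uneven amounts. Summed choroid plexus markers, 12 of 12 detected, ranged from 135 to 4200 CPM for S-V, from 71.8 to 9220 for D+V, from 92.5 to 10900 for D-V and from 92.9 to 1100 for Control. Markers of thalamus and habenula, of which 14 of 15 passed the filter, summed to 191 to 234 CPM for S-V, 178 to 264 for D+V, 154 to 240 for D-V and 217 to 304 for Control. Base composition also moved with the groups. Across 14743 genes, the log2 fold change of D+V over Control had a Spearman correlation of -0.54 with transcript GC content and of 0.32 with transcript length, a description over genes that are not independent. In whole tissue, fewer cells of a type and less RNA per cell cannot be told apart.

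The D+V group, turned in both directions with sight, held the highest mean levels of both beta subunits described here. Gabrb1, a beta subunit, had 107, 182, 239, 156 and 219 CPM in the 5 D+V libraries, against 121, 124 and 147 CPM in Control. Gabrb2, also a beta subunit, had 23.8, 72.0, 90.3, 46.8 and 77.0 CPM in D+V, against 35.7, 28.6 and 44.7 CPM in Control. For both genes 4 of 5 D+V libraries lay above all 3 controls, while D+V replicate 1 lay below all of them, so the groups overlapped. Gabrb1 averaged 180 ± 52.2 CPM in D+V (SD, n = 5) and 131 ± 14.4 CPM in Control (SD, n = 3), and Gabrb2 averaged 62.0 ± 26.5 and 36.3 ± 8.06 CPM in the same groups. By the quasi-likelihood test of edgeR over all genes, the log2 fold change was 0.47 for Gabrb1 (SE 0.19, adjusted p = 0.206). For Gabrb2 it was 0.77 (SE 0.34, adjusted p = 0.258), and neither gene passed the threshold of 0.05.

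**Figure D2:**
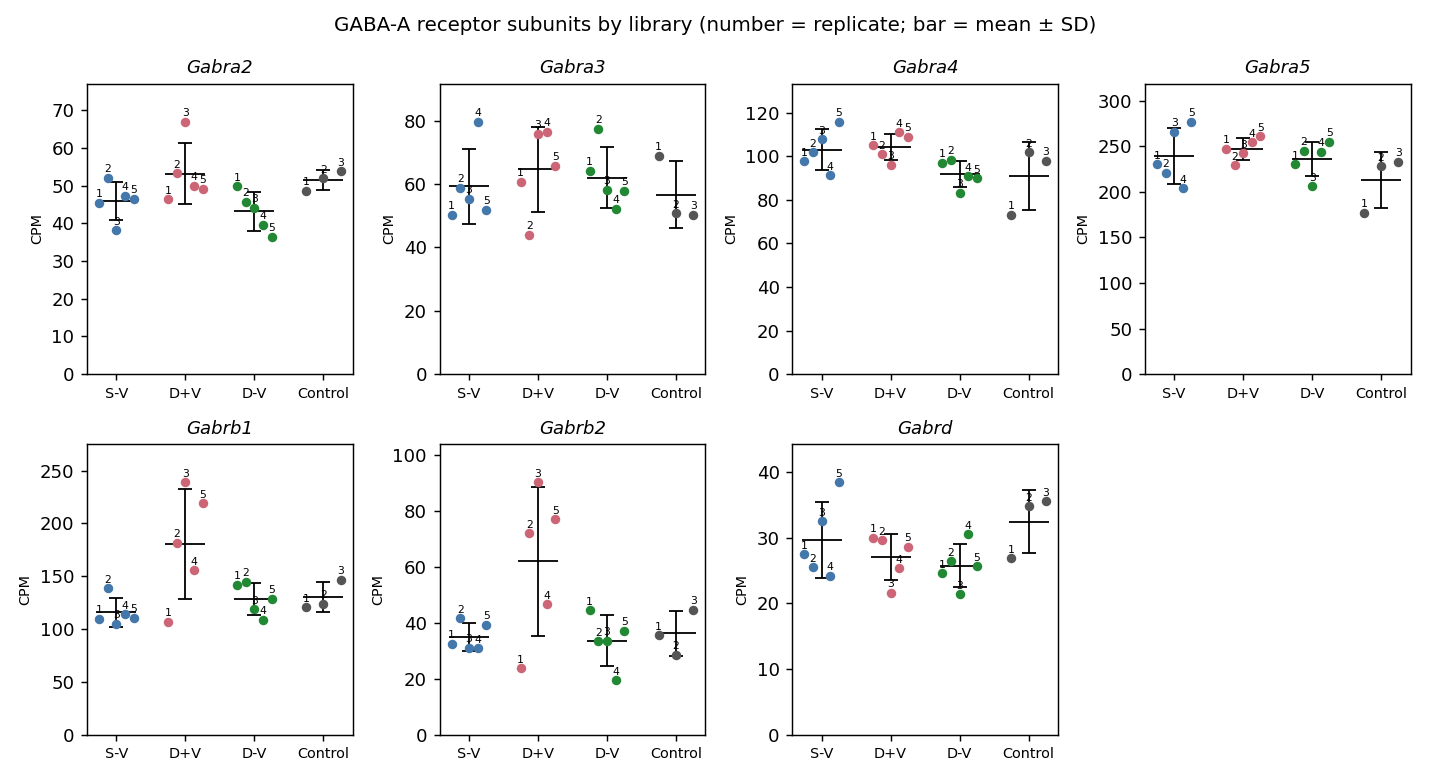
CPM of the 7 members in each library, with replicate numbers beside the points and bars for mean ± SD (S-V, D+V and D-V n = 5 each, Control n = 3). For Gabrb1 and Gabrb2, D+V replicates 2, 3 and 5 lie above every other library, and D+V replicate 1 lies below the controls.

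Other alpha subunits had smaller log2 fold changes in D+V over Control. Gabra5 had 247, 229, 242, 254 and 261 CPM in D+V, against 177, 228 and 233 CPM in Control, and 4 of 5 D+V libraries lay above all controls. Its log2 fold change was 0.21 (SE 0.10, adjusted p = 0.279 by edgeR). Gabra4 had 105, 101, 96.2, 111 and 109 CPM in D+V, against 73.2, 102 and 98.0 CPM in Control, a log2 fold change of 0.20 (SE 0.10, adjusted p = 0.295 by edgeR). In both genes Control replicate 1 was the lowest of the 18 libraries, and without it the log2 fold change was 0.10 for Gabra5 and 0.06 for Gabra4. Gabra3, an alpha subunit prominent in monoamine neurons of the brainstem, had 60.8, 44.1, 76.0, 76.6 and 65.8 CPM in D+V, against 69.0, 50.8 and 50.4 CPM in Control, with a log2 fold change of 0.19 (SE 0.18). These groups overlapped in each of the genes.

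Gabra2, whose product is enriched at the axon initial segment of pyramidal cells, had 46.4, 53.3, 67.0, 50 and 49.2 CPM in D+V, against 48.6, 51.9 and 53.8 CPM in Control. The log2 fold change was 0.05 (SE 0.11). Gabrd, the delta subunit of receptors outside synapses, was the single member with a negative value. It had 30.0, 29.6, 21.6, 25.3 and 28.6 CPM in D+V, against 26.9, 34.8 and 35.5 CPM in Control, with a log2 fold change of -0.26 (SE 0.14, adjusted p = 0.36 by edgeR). The groups overlapped for both genes.

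In D+V against Control, edgeR called 0 of 7 members at an adjusted p under 0.05, where 0.942% of all genes were called, 139 in number, or 4 with the replicate number as a block. At an unadjusted p under 0.05 it called 3 of 7, all higher in D+V (Gabrb1, Gabrb2 and Gabra5), against 10.8% of all genes called higher. DESeq2 called 0 of 7 members and 6.45% of all genes it gave an adjusted p. Limma voom with quality weights called 12.7% of all genes and 2 members, Gabrb1 at a log2 fold change of 0.64 (adjusted p = 0.00821) and Gabrb2 at 1.06 (adjusted p = 0.00996). Of the 7 members 6 were positive, as were 49.5% of all genes, with a median log2 fold change of 0.196 against -0.002 over all genes tested. The groups were free of overlap in 0 of 7 members, against 7.63% of all genes.

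The calls of the beta subunits turned on D+V replicate 1, the lowest D+V library for both. Leaving out each D+V or Control library in turn kept the edgeR log2 fold change over Control between 0.34 and 0.61 for Gabrb1 and between 0.59 and 0.97 for Gabrb2. The highest value of each came without D+V replicate 1, where both genes passed (adjusted p = 0.013 for Gabrb1 and 0.0298 for Gabrb2), as did 8.58% of all genes. D+V replicates 2, 3 and 5 held the highest levels of both genes. Leaving out these 3, a choice made on those values that by itself lowers the difference, gave a log2 fold change of 0.01 for Gabrb1 and -0.03 for Gabrb2. Summed astrocyte markers, 8 of 8 detected, stood at 3100, 3080 and 3120 CPM in D+V replicates 2, 3 and 5, and at 2670 and 2440 CPM in D+V replicates 1 and 4. Summed markers of hippocampal excitatory neurons stood at 7130, 7140 and 7910 CPM in D+V replicates 2, 3 and 5, and at 6080 and 6670 CPM in D+V replicates 1 and 4. Within D+V both lists were thus higher in the same 3 libraries. Outside D+V the excitatory neuron list was highest in Control replicate 3, at 7580 CPM, and D-V replicate 5, at 7550 CPM. There Gabrb1 stood at 147 and 129 CPM and Gabrb2 at 44.7 and 37.2 CPM. The astrocyte list was highest outside D+V in S-V replicate 4, at 2970 CPM, with Gabrb1 at 114 and Gabrb2 at 30.9 CPM. Summed dentate granule cell markers stood at 838, 851, 699, 850 and 849 CPM in D+V replicates 1 to 5. In the same order, CA1 pyramidal markers stood at 617, 668, 747, 767 and 748 CPM. CA3 pyramidal markers stood at 1000, 816, 1020, 996 and 936 CPM, and GABAergic interneuron markers at 1430, 1100, 1330, 1320 and 1290 CPM. None of these neuron lists set replicates 2, 3 and 5 above replicates 1 and 4. The part of any list in the result was not tested. The Spearman correlation between a library's deviation and transcript length over genes was -0.43 in D+V replicate 1 and 0.19, 0.42, 0.43 and 0.41 in D+V replicates 2 to 5. With the trends of each library on GC content and length removed, Gabrb1 had a log2 fold change of 0.11 (SE 0.09) and Gabrb2 of 0.63 (SE 0.34), and edgeR called 0 genes of all those tested.

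**Figure D3:**
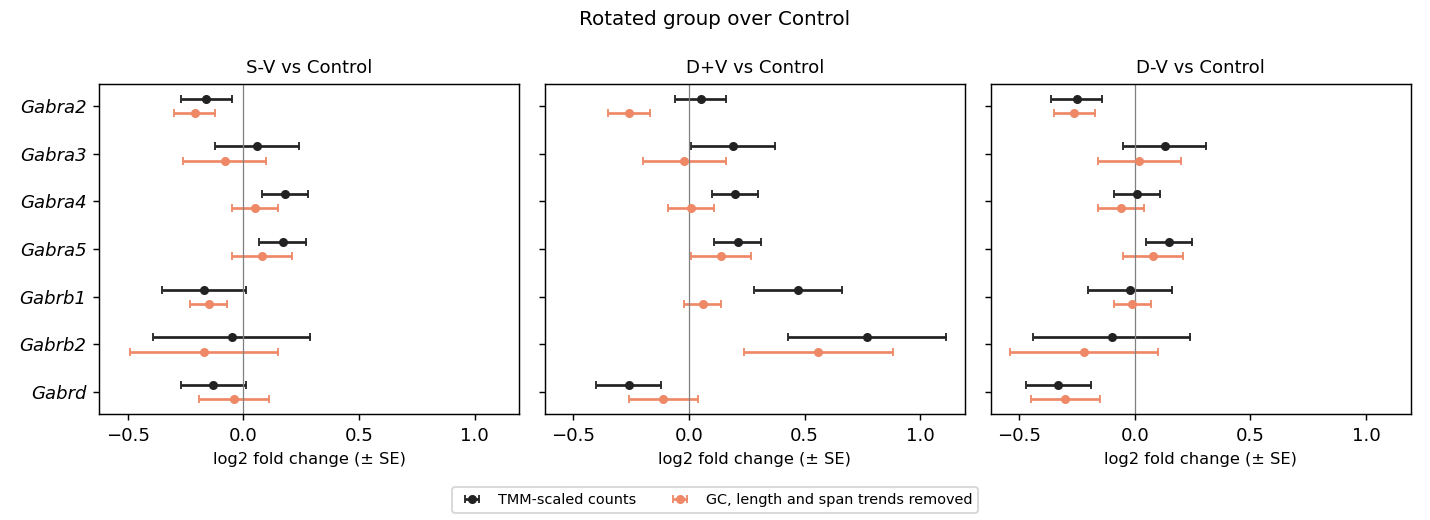
Log2 fold change (± SE) of each member for S-V, D+V and D-V over Control, from TMM-scaled counts (black) and after removal of the per-library trends on GC content, transcript length and gene span (orange). Gabrb1 in D+V moves to 0.06 with the trends removed, while Gabrb2 keeps 0.56.

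The D-V group had lower mean levels than D+V in all 7 members. Gabrb1 had 142, 145, 119, 109 and 129 CPM in D-V, against 107, 182, 239, 156 and 219 CPM in D+V. Gabrb2 had 44.6, 33.4, 33.7, 19.6 and 37.2 CPM in D-V, against the 23.8 to 90.3 CPM of D+V given above. Both overlapped only through D+V replicate 1, which lay within or near the D-V range. The log2 fold change of D-V over D+V was -0.48 for Gabrb1 (SE 0.16, adjusted p = 0.201 by edgeR) and -0.87 for Gabrb2 (SE 0.29, adjusted p = 0.215 by edgeR). Gabra2 had 49.9, 45.7, 44.1, 39.6 and 36.4 CPM in D-V, and 4 of 5 of these libraries lay below all 5 of D+V, with a log2 fold change of -0.30 (SE 0.10, adjusted p = 0.201 by edgeR). Gabra4 had 97.1, 98.5, 83.3, 90.9 and 89.9 CPM in D-V, and 3 of 5 of these lay below all 5 of D+V, with a log2 fold change of -0.18 (SE 0.08, adjusted p = 0.335 by edgeR).

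In D-V against D+V edgeR called 0 of 7 members and 0% of all genes. At an unadjusted p under 0.05 it called 4 of 7 members, all lower in D-V (Gabrb1, Gabrb2, Gabra2 and Gabra4), against 8.54% of all genes called lower. The groups were free of overlap in 0 of 7 members, against 1.58% of all genes. DESeq2 called 0 of 7 members and 2% of the 13043 genes it gave an adjusted p. Limma voom called 2 members, Gabrb1 and Gabrb2, and 5.55% of all genes. The median log2 fold change of the members was -0.183, against 0.009 over all genes, and a positive value was found in 0 of 7 members and in 52.3% of all genes. Without D+V replicate 1, edgeR called 8.38% of all genes and 3 of 7 members, with adjusted p = 0.00495 for Gabrb1, 0.00943 for Gabrb2 and 0.0422 for Gabra2. With GC and length trends removed, Gabrb1 stood at -0.10 (SE 0.08) and Gabrb2 at -0.81 (SE 0.29). Gabra2 then stood at nearly the same value over Control in both groups, -0.24 in D-V and -0.23 in D+V. Over the settings other than leaving out single libraries, the log2 fold change of D-V over D+V ran from -0.33 to 0 for Gabra2. For Gabra4 it ran from -0.23 to -0.07.

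Against S-V, the D+V group showed the smallest p of any member. Gabrb1 had 110, 139, 105, 114 and 111 CPM in S-V, and 4 of 5 D+V libraries lay above all of these. The log2 fold change of D+V over S-V was 0.64 (SE 0.16, unadjusted p = 0.00096 and adjusted p = 0.189 by edgeR). Gabrb2 had 32.6, 41.6, 31.2, 30.9 and 39.4 CPM in S-V, with a log2 fold change of 0.81 (SE 0.29, adjusted p = 0.289 by edgeR). For Gabra2, with 45.5, 52.1, 38.2, 47.3 and 46.5 CPM in S-V, it was 0.21 (SE 0.10, adjusted p = 0.384 by edgeR). Here too edgeR called 0 of 7 members and 0% of all genes, with 3 of 7 members at an unadjusted p under 0.05, all higher in D+V, against 8.13% of all genes. The 2 groups overlapped in 7 of 7 members, and in all but 1.21% of all genes. DESeq2 called 1 member, Gabrb1 (adjusted p = 0.012), and 1.27% of the 11614 genes it gave an adjusted p. Limma voom called 2 members and 13.2% of all genes. Over genes, the log2 fold change of D+V over S-V had a Spearman correlation of 0.46 with transcript length. With GC and length trends removed, Gabrb1 stood at 0.11 in D+V and -0.16 in S-V over Control (SE 0.09 for each). Gabrb2 then stood at 0.63 (SE 0.34) and -0.17 (SE 0.33). The comparisons with D+V share the same 5 libraries, so they are not independent of each other.

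The groups turned with eyes covered were also set against Control. In D-V against Control edgeR called 0 of 7 members and 0% of all genes, and DESeq2 and limma voom also called 0 members, with 0.0203% of all genes called by DESeq2 and 0% by limma voom. At an unadjusted p under 0.05 it called 2 members, both lower in D-V, where 2.65% of all genes were called lower. The groups overlapped in 7 of 7 members and were free of overlap in 5.12% of all genes. Gabra2 stood at 43.1 ± 5.28 CPM in D-V (SD, n = 5) and 51.5 ± 2.63 CPM in Control (SD, n = 3), with 4 of 5 D-V libraries below all controls and a log2 fold change of -0.25 (SE 0.11, adjusted p = 0.809 by edgeR). Gabrd had 24.6, 26.4, 21.4, 30.5 and 25.6 CPM in D-V, and 4 of 5 of these lay below all controls, with a log2 fold change of -0.33 (SE 0.14, adjusted p = 0.805 by edgeR). Gabrb1 and Gabrb2 had log2 fold changes of -0.02 (SE 0.18) and -0.10 (SE 0.34).

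In S-V against Control edgeR called 0 of 7 members and 0% of all genes, with 0 members at an unadjusted p under 0.05 against 13.4% of all genes. DESeq2 and limma voom also called 0 members. DESeq2 called 216 of the 8180 genes it gave an adjusted p, or 2.64%, and limma voom 318 of 14763, or 2.15%. All 7 members overlapped between these groups, while 12.4% of all genes did not. The smallest adjusted p was 0.433, for Gabra4, which had 97.9, 102, 108, 91.3 and 116 CPM in S-V and a log2 fold change of 0.18 (SE 0.10). Gabra5 had 230, 221, 266, 204 and 277 CPM in S-V, with a log2 fold change of 0.17 (SE 0.10). The remaining 5 members lay between -0.17 and 0.06 on this scale. In D-V against S-V edgeR called 0 of 7 members and 0% of all genes, 0 members at an unadjusted p under 0.05 against 6.29% of all genes. DESeq2 called 0 members and 0.0271% of all genes, and limma voom 0 members and 0% of all genes. Again 7 of 7 members overlapped, while 2.05% of all genes did not. The largest difference there was -0.20 (SE 0.13) for Gabrd.

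Gabrb1 and Gabrb2 varied together across libraries more closely than any other pair of members. Over the 18 libraries Pearson's r of their log2 CPM was 0.92 and Spearman's rho 0.86 (permutation p = 1e-05, the smallest that 100000 resamples give, and adjusted p = 0.00021 over 21 pairs). It was 0.83 without the 2 libraries farthest from the median of Gabrb1, 0.92 within groups, and 0.72 over the 15 libraries other than D+V replicates 2, 3 and 5. Gabra4 and Gabra5 had r = 0.82 and rho = 0.60 (permutation adjusted p = 0.000735 for r), and r = 0.59 without the 2 farthest libraries. Gabra2 followed both beta subunits, with r = 0.68 and rho = 0.71 for Gabrb1 (permutation adjusted p = 0.0132 for r) and r = 0.66 and rho = 0.64 for Gabrb2 (permutation adjusted p = 0.0193 for r). Without the 2 farthest libraries both stood at r = 0.6, and over the 15 libraries other than D+V replicates 2, 3 and 5 at 0.5 and 0.45. Gabra3 and Gabrd ran in opposite directions, with r = -0.62 and rho = -0.65 (permutation adjusted p = 0.0258 for r), and -0.63 without the 2 farthest. Gabra4 and Gabrb1, whose starts face each other, had r = 0.17 and rho = 0.07 (permutation adjusted p = 0.63 for r). Values of 1 library share its depth and base composition, whose part in these correlations was not tested.

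**Figure D4:**
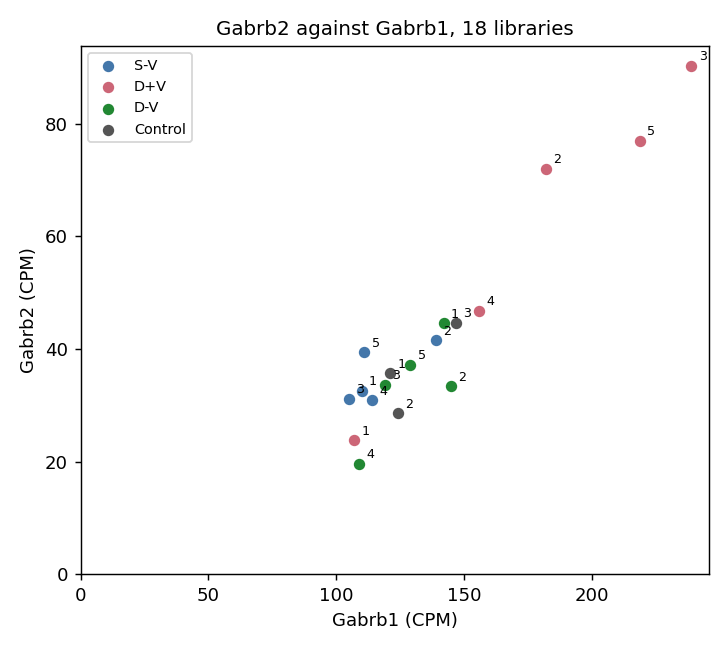
Gabrb2 against Gabrb1 in CPM, 1 point per library with its replicate number (S-V, D+V and D-V n = 5 each, Control n = 3). D+V replicates 2, 3 and 5 stand apart at the upper right, and D+V replicate 1 sits at 107 and 23.8 CPM.

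The members also differed in their spread within groups. Gabrb2 had a within-group SD of 0.502 on the log2 scale, larger than that of 99.5% of genes at its level, and Gabrb1 had 0.281, larger than 98.1%. For Gabra3 it was 0.27, larger than 96.8% of genes at its level. Gabrd had 0.222, larger than 88.5%, and Gabra2 had 0.171, larger than 80%. Gabra4, at 0.14, lay above 68.7% of genes at its level, and Gabra5, at 0.15, above 72%. The medians for genes of their levels were 0.116 and 0.118.

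The genes most like each member over the 18 libraries were found among 12448 genes, as a description without a test. Gabrb1 ran closest with Unc80 (r = 0.978) and Apc (r = 0.969), whose transcripts are also long, at 13.6 and 12.8 kb against 13.7 kb for Gabrb1. Gabrb2 ran closest with Stxbp5l (r = 0.974) and Xkr4 (r = 0.973), at 4.39 and 3.63 kb against 3.99 kb for Gabrb2. The median over the genes tested was 3.07 kb, and the part of length was not tested. Pkia, an inhibitor of protein kinase A, was among the genes closest to Gabra4 (r = 0.909). Gabra5 ran closest with Kcnip4 (r = 0.892) and Prkce (r = 0.86), Gabra3 with Plxnc1 (r = 0.924) and Impact (r = 0.89). Gabra2 ran closest with Zfp62 (r = 0.873) and Hspa4l (r = 0.859), and Gabrd with Tdo2 (r = 0.879) and Fam163b (r = 0.852). Tdo2 is a marker of dentate granule cells, in which Gabrd is abundant.

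Ratios within a library set 1 subunit against another, either a partner in the same receptor or an alternative at the same position. The log2 ratio of Gabrd to Gabra4, partners in receptors outside synapses, was -1.83, -2.0, -1.73, -1.91 and -1.59 in S-V. It was -1.80, -1.76, -2.15, -2.13 and -1.93 in D+V, and -1.98, -1.90, -1.95, -1.57 and -1.81 in D-V, against -1.44, -1.55 and -1.46 in Control. All 15 rotated libraries lay below all 3 controls, the closest at -1.57 in D-V against -1.55 in Control. The difference from Control was -0.33 in S-V (exact two-sided permutation p = 0.0357), -0.47 in D+V (exact p = 0.0179, the smallest that 5 against 3 libraries allow) and -0.36 in D-V (exact p = 0.0357). None passed adjustment over the 18 ratio tests (adjusted p = 0.161 for each exact test), and the 3 comparisons share their controls.

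Gabrd has a GC content of 56.8% and Gabra4 of 42.2%, and with GC and length trends removed the difference from Control was -0.12 for S-V, -0.14 for D+V and -0.25 for D-V. The exact permutation p was then 0.357 for S-V (adjusted p = 0.536) and 0.0179 for D-V (adjusted p = 0.321). For D+V the adjusted p of the permutation test was 0.161 or higher in every setting run. The log2 ratio of Gabra5 to Gabra2 was higher in D-V than in Control by 0.42, with all 5 D-V libraries above all controls (exact permutation p = 0.0357, adjusted p = 0.161). With GC and length trends removed this difference was 0.35 (exact permutation p = 0.107, adjusted p = 0.442). For Gabrb2 over Gabrb1 the difference from Control was 0.14 for S-V, 0.23 for D+V and -0.11 for D-V, and the groups overlapped.

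**Figure D5:**
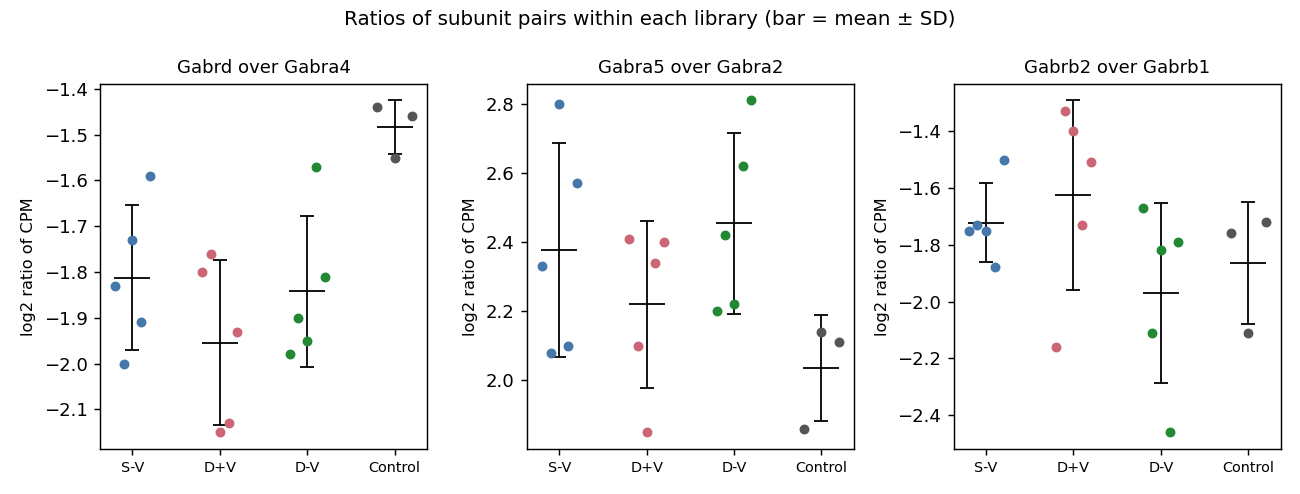
Log2 ratio of 3 subunit pairs within each library, with mean ± SD (S-V, D+V and D-V n = 5 each, Control n = 3). The Gabrd over Gabra4 ratio of every rotated library, -1.57 or lower, lies below the lowest control at -1.55.

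Among the receptor subunits that are not members, Gabrg1, a gamma subunit, had 22.1 ± 1.83 CPM in D+V (SD, n = 5) and 18.4 ± 3.83 CPM in Control (SD, n = 3), with a log2 fold change of 0.26 (SE 0.14). Gabrg3, also a gamma subunit, had 17.2 ± 2.68 CPM in D+V and 15.2 ± 1.51 CPM in Control, with a log2 fold change of 0.18 (SE 0.18). Neither passed the edgeR test (adjusted p = 0.36 for Gabrg1 and 0.648 for Gabrg3). Gabre, Gabrq and Gabrr2, which code for the epsilon, theta and rho2 subunits, averaged 0.469, 0.748 and 0.902 CPM over all libraries.

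Genes of the proteins that work with the receptors, and of GABA-B and glycine receptors, gave 0 calls by edgeR in any of the 6 comparisons. In D+V against Control DESeq2 called 4 of the 50 genes tested and limma voom 12. Among all genes, limma voom called 12.7%, and DESeq2 6.45% of those it gave an adjusted p. Of 28 listed genes for clustering, trafficking and auxiliary proteins 27 were tested, and in D+V against Control 7 were higher and 5 lower at an unadjusted p under 0.05, against 10.8% of all genes higher and 6.86% lower. Prkcb, a protein kinase C, had the smallest p, at a log2 fold change of 0.47 (SE 0.13, adjusted p = 0.0718 by edgeR), and Rdx, the radixin that anchors alpha5 receptors, stood at 0.24 (SE 0.07, adjusted p = 0.0939 by edgeR). Of 12 genes for GABA synthesis, transport and chloride balance, 1 was higher and 0 lower, Wnk1 at 0.28 (SE 0.13). Stk39, which like Wnk1 acts on chloride cotransporters, stood at 0.43 (SE 0.21) in D+V and 0.50 (SE 0.21) in D-V over Control. Slc6a11, a GABA transporter of astrocytes, stood at -0.23 (SE 0.11) in D-V over Control.

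Of 8 GABA-B receptor genes, 2 were higher and 1 lower at an unadjusted p under 0.05 in D+V against Control. Among all genes, 10.8% were higher and 6.86% lower at that level. Kctd16, an auxiliary subunit, had a log2 fold change of 0.75 (SE 0.29), and Kcnj9, a subunit of the potassium channel that these receptors open, of -0.25 (SE 0.09). Of 3 glycine receptor subunits tested, 2 were higher in D+V at that level, against 10.8% of all genes. They were Glrb at 0.24 (SE 0.08) and Glra3 at 0.75 (SE 0.32). In D-V against Control Stk39 had an unadjusted p of 0.0311 (adjusted p = 0.805 by edgeR) and Slc6a11 of 0.0614. The genes with the smallest p in the other 3 lists were Ubqln1 at 0.10 (SE 0.06), Rdx at 0.13 (SE 0.07), Gabbr1 at -0.09 (SE 0.06), Kctd12 at 0.12 (SE 0.10), Glrb at 0.14 (SE 0.08) and Glra3 at 0.26 (SE 0.32), and none of them passed an unadjusted p of 0.05.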

How the data were processed

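The deposited table gave estimated counts for each gene in a column per library, and 7.35% of the values were not whole numbers, per the file headers and the values. The submitters' processing notes name HISAT2, DESeq2, StringTie 1.3.1 and Bowtie2 2.2.8 as tools of the authors, without saying what each did. None of the sources used here gives the genome build, annotation or strand setting. The counts were rounded to whole numbers. Genes kept by filterByExpr of edgeR 4.0.16 were scaled by TMM and fitted in R 4.3.3 as 4 group means over the 18 libraries, and each comparison took a robust quasi-likelihood F test. A call was a Benjamini-Hochberg adjusted p under 0.05 over 14763 genes, in each of 6 comparisons. The common biological coefficient of variation was 15.4%. CPM used TMM-scaled library sizes, and log2 CPM a prior count of 2. Molecular identifiers were not used, so a count may include PCR duplicates, and its precision is that of reads and not of molecules.

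The members and lists were chosen with earlier results of these data known, so no count over a list is independent evidence. Beyond the members, the rule named the other subunits, the 2 genes with the smallest p in each other list for D+V and for D-V against Control, and the 2 most like each member; some of these are not reported here. Transcript length, GC content and gene span came from GENCODE vM21. Trends on them were removed by natural splines with 5 degrees of freedom for 14743 genes. Alternatives were DESeq2 1.42.0, limma 3.58.1 voom with quality weights, other scaling, filters, prior counts, only the groups compared, libraries left out and the replicate number, taken from the sample titles, as a block. In D+V against Control, deviations of same-numbered libraries correlated at 0.107 to 0.168 in 3 of 3 pairs. The main fit did not use the numbers, and with them as a block 4 genes were called there. The edgeR fit was tested on simulated data whose libraries had no trends on GC content or length. That test therefore cannot speak to the effect of such trends. Libraries of a group differed by a chi-square of at least 5.37 per gene, so none was a copy of another in its group. Libraries of different groups were not compared in this way.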

Additional observations from a re-analysis of the deposited data

Results flagged for a closer look

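In S-V, 2 libraries stood apart from the other 4 of their group by more than Dixon's critical value for 5 samples. Gabra3 had 79.8 CPM in S-V replicate 4, against 50.4 to 58.9 CPM in the others, a gap of 0.711 of the whole range. Gabrb1 had 139 CPM in S-V replicate 2, against 105 to 114 CPM in the others, a gap of 0.75 of the range. Both libraries were rich in choroid plexus markers, at 3920 CPM in S-V replicate 4 and 4200 CPM in S-V replicate 2. Gabrb1 stood at 114 CPM in S-V replicate 4, and Gabra3 at 58.9 CPM in S-V replicate 2. D-V replicates 3 and 4 held 10900 and 5290 CPM of these markers. Gabra3 stood there at 58.2 and 52.2 CPM, and Gabrb1 at 119 and 109 CPM. In D+V replicate 2, with 9220 CPM of these markers, Gabra3 stood at 44.1 CPM and Gabrb1 at 182 CPM. The part of that tissue was not tested. In all, 21 sets of 5 values were examined, and chance gives about 1 in 20.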

How the results depend on the processing

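Of 42 member log2 fold changes, 25 kept their direction in every setting run and 17 turned in at least 1, and the cause was not tested. The number of members called was 0 in all 6 comparisons by edgeR. By limma voom it was 2 in D+V over Control, 2 in D-V over D+V and 2 in D+V over S-V, and by DESeq2 it was 1 in D+V over S-V. Leaving out each library in turn gave 0 to 2 members in D+V over Control, 0 to 3 in D-V over D+V and 0 to 2 in D+V over S-V, where each highest count came without D+V replicate 1. The count of all genes called moved more than the members did. In D+V over Control it was 139 and ran from 0, with only the groups compared or with the trends removed, to 1882 by limma voom, and from 0 without Control replicate 1 to 1260 without D+V replicate 1. In D-V over D+V it was 0 and reached 819 by limma voom and 1230 without D+V replicate 1, in D+V over S-V 1943 and 1480, and in S-V over Control 318 by limma voom.

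With GC and length trends removed, the reversed values were -0.23 for Gabra2 in D+V over Control, -0.03 for Gabra2, -0.03 for Gabra4 and 0.13 for Gabra5 over Gabra2 in D+V over S-V, 0.01 for Gabra3, -0.07 for Gabra5 over Gabra2 and -0.11 for Gabrd over Gabra4 in D-V over D+V, -0.07 for Gabra3 in S-V over Control, -0.05 for Gabra4 and 0.01 for Gabrb1 in D-V over Control and 0.01 for Gabra5 in D-V over S-V. With the gene span trend removed as well, the reversed values were -0.26 for Gabra2 and -0.02 for Gabra3 in D+V over Control, -0.05 for Gabra2 and -0.05 for Gabra4 in D+V over S-V, 0.04 for Gabra3 in D-V over D+V, -0.08 for Gabra3 in S-V over Control, -0.06 for Gabra4 in D-V over Control and 0 for Gabra5 in D-V over S-V. By limma voom, the reversed values were -0.03 for Gabra4, 0.04 for Gabrb1 and 0.04 for Gabrb2 in D-V over Control and 0.09 for Gabrb2 in S-V over Control. With upper-quartile scaling, the reversed values were -0.01 for Gabra4 in D-V over Control. With the replicate number as a block, the reversed values were 0.01 for Gabrb1 in D-V over Control and 0.02 for Gabrb2 in S-V over Control. Without the 5 libraries with over 3000 CPM of choroid plexus markers, the reversed values were 0.02 for Gabra2 and 0.16 for Gabrb2 in D-V over S-V, -0.11 for Gabra3 and 0.01 for Gabrd in S-V over Control, -0.03 for Gabra4 and -0.04 for Gabra5 in D+V over S-V and 0.09 for Gabrb1 and 0.08 for Gabrb2 in D-V over Control. Without D+V replicates 2, 3 and 5, left out for their high beta subunit levels, the reversed values were -0.09 for Gabra2 and -0.03 for Gabrb2 in D+V over Control. In D+V over Control, leaving out each library in turn gave -0.05 to 0.09 for Gabra2. In D-V over D+V, leaving out each library in turn gave -0.17 to 0.01 for Gabra3. In D-V over S-V, leaving out each library in turn gave -0.03 to 0.19 for Gabra3, -0.08 to 0.04 for Gabra5, -0.18 to 0.09 for Gabrb2, -0.01 to 0.18 for Gabra5 over Gabra2 and -0.10 to 0.03 for Gabrd over Gabra4. In S-V over Control, leaving out each library in turn gave -0.06 to 0.23 for Gabra3 and -0.19 to 0.13 for Gabrb2. In D-V over Control, leaving out each library in turn gave -0.12 to 0.10 for Gabra4, -0.07 to 0.08 for Gabrb1, -0.25 to 0.07 for Gabrb2 and -0.23 to 0.01 for Gabrb2 over Gabrb1. In D+V over S-V, leaving out each library in turn gave -0.02 to 0.07 for Gabra4 and -0.01 to 0.11 for Gabra5.

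The replicate number as a block changed the call of 0 members. Outside D+V over Control, same-numbered libraries correlated at -0.452 to 0.34 and not all pairs passed 0.1. These correlations were not tested, so whether equal numbers mark libraries handled together cannot be told from them. With 3 controls, an exact permutation test of 5 against 3 libraries cannot go below 0.0179. In D+V over Control the members' log2 fold changes had standard errors of 0.10 to 0.34.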
